A study of Mus musculus with 10 samples.

Results

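The interferon-inducible p200 genes of the mouse were followed here across androgen treatment in tauopathy hippocampus. The 8 genes Ifi203, Ifi204, Ifi205, Ifi207, Ifi209, Ifi211, Ifi213 and Mndal were taken by name from the 56884 genes of the count table. All 8 were found. To compare their expression between treatments, bulk RNA-seq was examined in the hippocampus of 10 female hTau PS19 mice (P301S mice), 1 library per mouse. A subcutaneous implant with 10 mm of dihydrotestosterone (DHT), an androgen that cannot be aromatized into estrogen, was placed in 5 mice, and 5 mice received a void implant. Treatment of these mice, whose ovaries were intact, began at about 6 months of age and lasted 12 weeks with implants renewed every 4 weeks, and tissue was taken at 9 to 9.5 months. Every mouse carried the transgene for human mutant Tau under the mouse Prnp promoter on the mixed B6;C3 background, and no mouse without the transgene was analysed here. Mice are called by implant and the number in their label (void 4, 5, 9, 10 and 11, and DHT 1, 2, 3, 5 and 6).

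The p200 proteins belong to the PYHIN family. Most pair a pyrin domain, through which proteins of this kind bind each other, with at least 1 HIN domain, which binds DNA. Ifi204 encodes p204, a nuclear and cytosolic DNA sensor that can signal through STING to induce interferon. Their relative Aim2 binds DNA in the cytosol and recruits Pycard (ASC) and caspase-1 into an inflammasome, which matures interleukin-1β and interleukin-18. Type I interferon acts on cells through transcription factors, IRF9 among them, that bind the interferon-stimulated response element (ISRE) of target genes. In the brain, microglia are among the cells that express p200 genes, and interferon-stimulated genes are a known part of their response to pathology.

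The members lie together on mouse chromosome 1. In GENCODE M21 (GRCm38) they span chr1:173566283-174031810, among 6 further family genes that the count table holds (Aim2, Ifi202b, Ifi206, Ifi208, Ifi214 and the pseudogene Ifi203-ps). Promoter sequences from RefSeq (GRCm38.p6) were matched by symbol for 7 of the 8 members, Ifi204 being the exception, and the 250 bases before each start were searched on both strands. The ISRE letters (GAAA, any 2 bases, GAAA) were found before a start of 6 of the 7 members, against 2.98% of 32851 promoters of the same length. The stretches are shown because they hold what these promoters share and where they differ. They run 5′ to 3′ on the gene's own strand, with the element in capitals. In Ifi209 the capitals mark the closest run, which differs from the element at 1 of its 8 fixed letters.
Ifi203, chr1:173942494-173942553, minus strand: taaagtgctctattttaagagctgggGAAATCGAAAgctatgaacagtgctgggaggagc
Mndal, chr1:173880204-173880233, minus strand: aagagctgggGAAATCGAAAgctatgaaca
Ifi207, chr1:173741817-173741876, minus strand: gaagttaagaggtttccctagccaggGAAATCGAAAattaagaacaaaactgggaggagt
Ifi211, chr1:173913050-173913109, minus strand: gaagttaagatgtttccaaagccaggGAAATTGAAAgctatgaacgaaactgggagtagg
Ifi205, chr1:174031856-174031915, minus strand: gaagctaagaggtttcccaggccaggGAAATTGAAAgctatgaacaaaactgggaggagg
Ifi213, chr1:173599312-173599371, minus strand: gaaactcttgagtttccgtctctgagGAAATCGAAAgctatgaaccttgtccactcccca
Ifi209, chr1:173630754-173630813, plus strand: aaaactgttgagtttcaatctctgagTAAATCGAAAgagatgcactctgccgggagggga

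The element began 35 to 134 bases before the RefSeq start in these 6 members. It read GAAATCGAAA in Ifi203, Ifi207, Ifi213 and Mndal and GAAATTGAAA in Ifi205 and Ifi211. A further match, TTTCTCTTTC with the element on the opposite strand, lay 54 bases before another RefSeq start of Mndal. The stretches of Ifi203 and Mndal were the same at 60 of 60 bases, of which 30 are shown for Mndal because GENCODE M21 also annotates exons there. Ifi205 and Ifi211 were the same at 54 of 60 bases, and Ifi205 and Ifi207 at 52. The letters of other elements were searched in the same windows. AGGTCA, a nuclear receptor element, was in 0 of the 7 members and 14% of all promoters. GAGGAA, a core read by the myeloid factor PU.1, was in 1 member and 23.3% of all promoters. These matches describe letters, and binding was not measured.

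Close relatives can share reads, and how the counting treated reads that match several genes is not given in the sources used here. By GENCODE M21 transcripts, 56.9% of the 100-base stretches of Ifi211 also occurred in another gene, 37.2% in Ifi205 and 19.6% in Ifi204. The shares were 16.9% for Ifi209, 15% for Ifi205, 10.7% for Ifi204, 6.38% for Mndal, 3.30% for Ifi213, 2.84% for Ifi203 and 0.790% for Ifi207. By this measure Ifi211 was the least specific, followed by Ifi209, and Ifi207 and Ifi203 were the most specific. Mndal and Ifi203 also overlap in the annotation. A Mndal transcript starts from the exon at chr1:173942455-173942491, 37 bases that Ifi203 transcripts use as well, and Ifi211 lies within the span of that Mndal transcript.

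**Figure D1:**
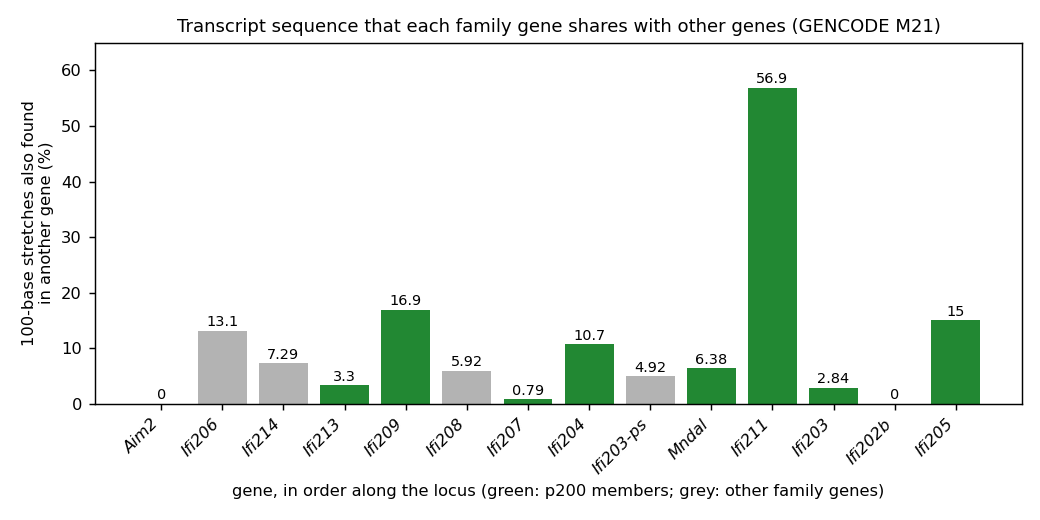
Share of the 100-base stretches of each family gene's GENCODE M21 transcripts that also occur in another gene, in percent on the vertical axis, with the 14 genes in order along the locus (green, the 8 members; grey, the other 6). Ifi211 stands highest at 56.9%, and Ifi207 is at 0.790%.

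Total counts per library ranged from 27188854 to 47113661 with void and from 33523527 to 45947784 with DHT. Levels are given as counts, or as counts divided by the TMM-normalised library size (normalised CPM). All 8 hippocampal neuron markers listed were detected, with a summed level of 1672 to 2097 CPM with void and 1558 to 2224 with DHT. The positions in the library names of all void mice (4 to 11) precede those of the DHT mice (18 to 23), so the treatment and the order of the libraries cannot be told apart. In whole tissue, fewer cells of a type and less RNA per cell cannot be told apart either.

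The p200 genes were scarce transcripts, and the members did not behave alike. Ifi204 was higher in DHT-treated females, by 2.82 on the log2 scale, and without a filter on low counts so were Ifi209 (3.63) and Ifi207 (2.05). Mndal and Ifi203, the members with the highest levels per length with void, differed from mouse to mouse within both groups and did not pass the test in either direction (-0.996 and -0.29). One animal, DHT 3, had the highest level of all 8 members. A gene counted as called when its p from edgeR's quasi-likelihood test, adjusted by Benjamini-Hochberg, was under 0.05 and its log2 fold change was beyond 1. Of the 8 members, 4 passed edgeR's filter on low counts (Ifi203, Ifi204, Ifi207 and Mndal), and Ifi204 and Ifi207 passed it only through the DHT group. Ifi204 was called higher and no member lower, where 2.17% of the 17622 genes tested were called higher and 0.0227% lower. With any gene of at least 1 count tested, Ifi204, Ifi207 and Ifi209 were called higher and no member lower, where 1.34% of 35326 genes were higher and 0.0226% lower. DESeq2 called the same 3 members higher, where 2.22% of genes were, and with an unadjusted p Ifi204 and Ifi207 passed, where 2.87% of genes did.

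**Figure D2:**
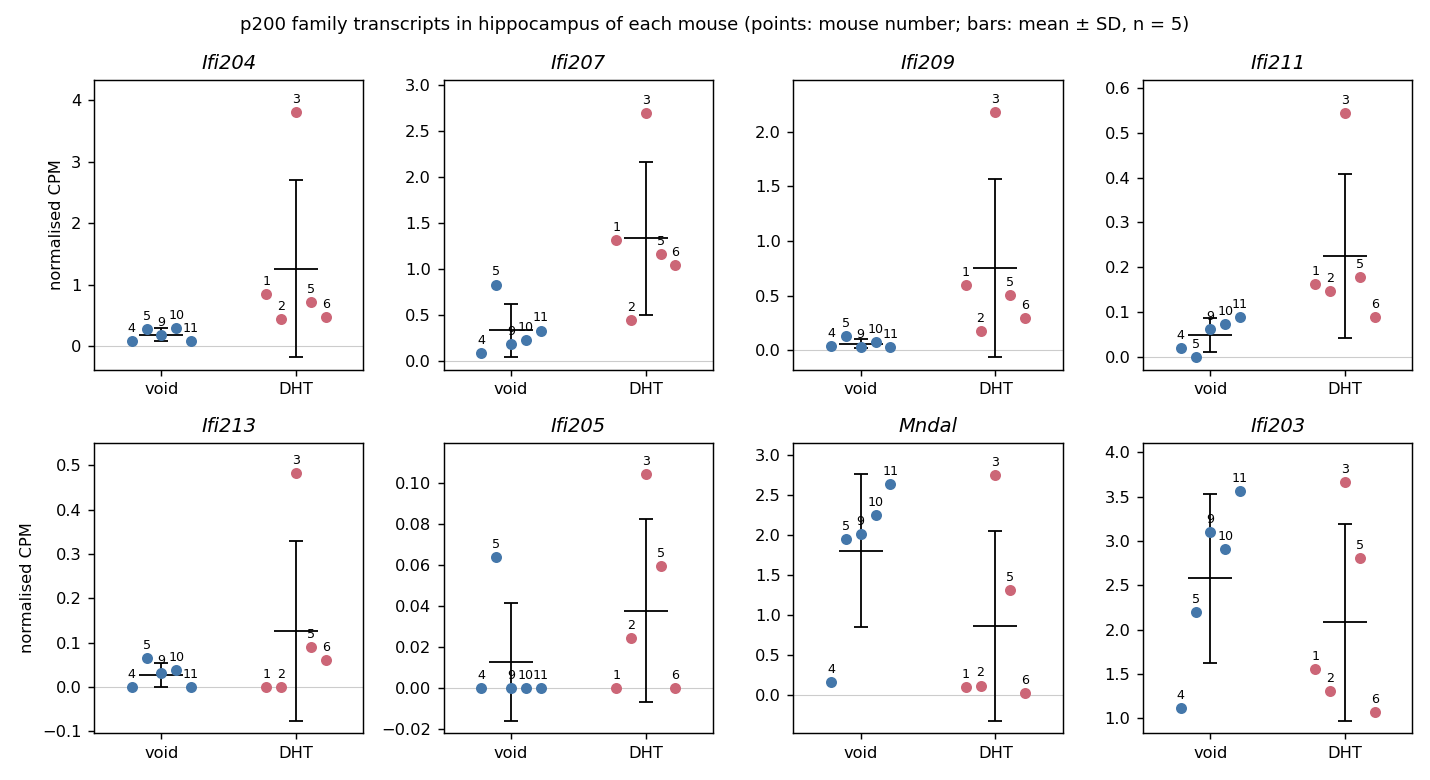
Normalised CPM of each of the 8 members (vertical axes, scaled separately) in 5 void mice (blue) and 5 DHT mice (red), with each point numbered by mouse and bars giving mean ± SD. DHT 3 is the highest point in all 8 panels, and void 4, DHT 1, DHT 2 and DHT 6 are the lowest points for Mndal and Ifi203.

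Ifi204, the DNA sensor gene, had 4, 9, 6, 8 and 3 counts in void 4, 5, 9, 10 and 11. In DHT 1, 2, 3, 5 and 6 it had 31, 18, 182, 24 and 16 counts. The groups did not overlap, and DHT 3 alone held 67.2% of the DHT group's counts. Normalised, Ifi204 was at 0.189 ± 0.102 CPM with void and 1.26 ± 1.44 CPM with DHT (SD, n = 5 each). This was a log2 fold change of 2.82, with a standard error of 0.70 and an adjusted p of 0.0375 (edgeR's quasi-likelihood test). All 5 DHT mice were above all 5 void mice (two-sided exact permutation test of mean log2 CPM, p = 0.00794, the smallest that 5 against 5 allow), a separation in this direction that 5.39% of genes tested showed. The spread within the DHT group was larger than its mean because of DHT 3, at 3.81 CPM against 0.621 ± 0.194 CPM (SD, n = 4) in the other DHT mice. Without DHT 3 the log2 fold change was 1.74 (adjusted p = 0.0386). The call was lost without DHT 1 (adjusted p = 0.0668) and without each single void mouse (0.0591 to 0.110), while the log2 fold change stayed between 1.74 and 3.04 over the 10 fits that each left out 1 mouse. Under limma voom the adjusted p was 0.0674, and without the count filter Ifi204 was called in all 10 such fits.

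Ifi209 was too scarce for the count filter. It had 2, 4, 1, 2 and 1 counts in void 4, 5, 9, 10 and 11, and 22, 7, 104, 17 and 10 counts in DHT 1, 2, 3, 5 and 6. Every DHT mouse was above every void mouse, as for 2.99% of genes with at least 1 count. The mean was 0.0610 ± 0.0414 CPM with void and 0.752 ± 0.815 CPM with DHT (SD, n = 5 each). Of the void mice only void 5 had more than 3 counts, the limit of detection used here, so the size of the fold change is uncertain. In the fit without the filter the log2 fold change reached 3.63 with a standard error of 0.69 (adjusted p = 0.00576), the highest value among the members. It was 2.65 (adjusted p = 0.00653) without DHT 3, which held 65% of the DHT counts. Without the filter, Ifi209 was called in all 10 fits that each left out 1 mouse. With the filter it was tested only in the fits without void 5, 9, 10 or 11. There it was called without void 5 and without void 9, and not called without void 10 or void 11. A part of its transcript, 16.9% of its 100-base stretches, is shared with Ifi214, which had 1 to 5 counts in the 7 mice where it was seen.

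Ifi207, a nuclear member, had 4, 26, 6, 6 and 11 counts in void 4, 5, 9, 10 and 11 and 48, 18, 129, 39 and 35 counts in DHT 1, 2, 3, 5 and 6. The groups overlapped through void 5, whose level of 0.831 CPM was above the 0.444 CPM of DHT 2, and 4 of 5 DHT mice were above all void mice. Means were 0.330 ± 0.293 CPM with void and 1.33 ± 0.833 CPM with DHT (SD, n = 5 each). The log2 fold change of 2.06 (standard error 0.56) did not pass after adjustment (adjusted p = 0.0548, edgeR's quasi-likelihood test, and p = 0.0159 in the two-sided exact permutation test). It passed without the count filter (2.05, adjusted p = 0.0263), under DESeq2 (2.0, adjusted p = 0.00591), without void 5 (2.75, adjusted p = 0.0237) and without DHT 2 (2.28, adjusted p = 0.0268). These were 2 of the 10 fits that each left out 1 mouse. In the other 8 the adjusted p was 0.0727 to 0.135. Without DHT 3 the value fell to 1.59 (adjusted p = 0.132), and under limma voom the adjusted p was 0.0527. Without the count filter the call was lost without void 4, void 10, void 11 or DHT 3. Ifi207 has almost no 100-base stretch in common with other genes.

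Ifi211 had 1, 0, 2, 2 and 3 counts in void 4, 5, 9, 10 and 11 and 6, 6, 26, 6 and 3 counts in DHT 1, 2, 3, 5 and 6. Its log2 fold change in the unfiltered fit reached 2.22 (standard error 0.63, adjusted p = 0.0740), and 4 of 5 DHT mice were above all void mice (two-sided exact permutation test, p = 0.0159). Since Ifi211 shares 19.6% of its stretches with Ifi204, which moved the same way, its own part in these counts is uncertain. It passed in 1 of 10 fits that each left out 1 mouse, that without DHT 6 (2.41, adjusted p = 0.0396).

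Ifi213 and Ifi205 were near the limit of detection, which is 3 counts per library, or 0.0628 to 0.111 CPM. Ifi213 had 0 to 2 counts in each void mouse and 0, 0, 23, 3 and 2 counts in DHT 1, 2, 3, 5 and 6. Its value with DHT is that of 1 mouse: the log2 fold change reached 2.36 (adjusted p = 0.413) with all mice and 0.49 without DHT 3. Ifi205 had 2 counts in all void mice together and 8 in all DHT mice together, with 6 of 10 mice at 0. The ratio of its summed counts was 3.57 (95% exact interval 0.713 to 34.5, counting error only), so no difference was detectable at this depth.

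Mndal, which encodes a myeloid nuclear protein, was at 0.169, 1.95, 2.02, 2.25 and 2.64 CPM in void 4, 5, 9, 10 and 11. In DHT 1, 2, 3, 5 and 6 it was at 0.109, 0.123, 2.74, 1.32 and 0.0298 CPM. The 10 mice thus fell into 4 low and 6 high ones, with a 7.79-fold step from 0.169 to 1.32 CPM between them and mice of both implants on each side. In counts, the 4 low mice had 1 to 8 and the other 6 had 44 to 131. The group means, 1.80 ± 0.953 CPM with void and 0.865 ± 1.18 CPM with DHT (SD, n = 5 each), describe neither set of mice. The background of the line is mixed, and whether these mice differ in sequence at the locus was not tested. At -0.996 (standard error 0.87, adjusted p = 0.642) the log2 fold change was close to its error. It moved to -2.23 without DHT 3 (adjusted p at least 0.208 over the 10 fits that each left out 1 mouse).

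Ifi203 was at 1.12, 2.20, 3.10, 2.91 and 3.56 CPM in void 4, 5, 9, 10 and 11 and at 1.56, 1.31, 3.67, 2.81 and 1.07 CPM in DHT 1, 2, 3, 5 and 6. Its 4 lowest mice (DHT 6, void 4, DHT 2 and DHT 1) were the 4 that were low in Mndal. The step above them was smaller, 1.42-fold from 1.56 to 2.20 CPM, and Ifi203 had at least 36 counts in every mouse. The ratio of Mndal to Ifi203 counts was 0.0278 to 0.151 in these 4 mice and 0.468 to 0.884 in the other 6. Between the groups the log2 fold change of Ifi203, at -0.29 (standard error 0.37, adjusted p = 0.775), was smaller than its error. It is the one member with at least 10 counts in every library.

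**Figure D3:**
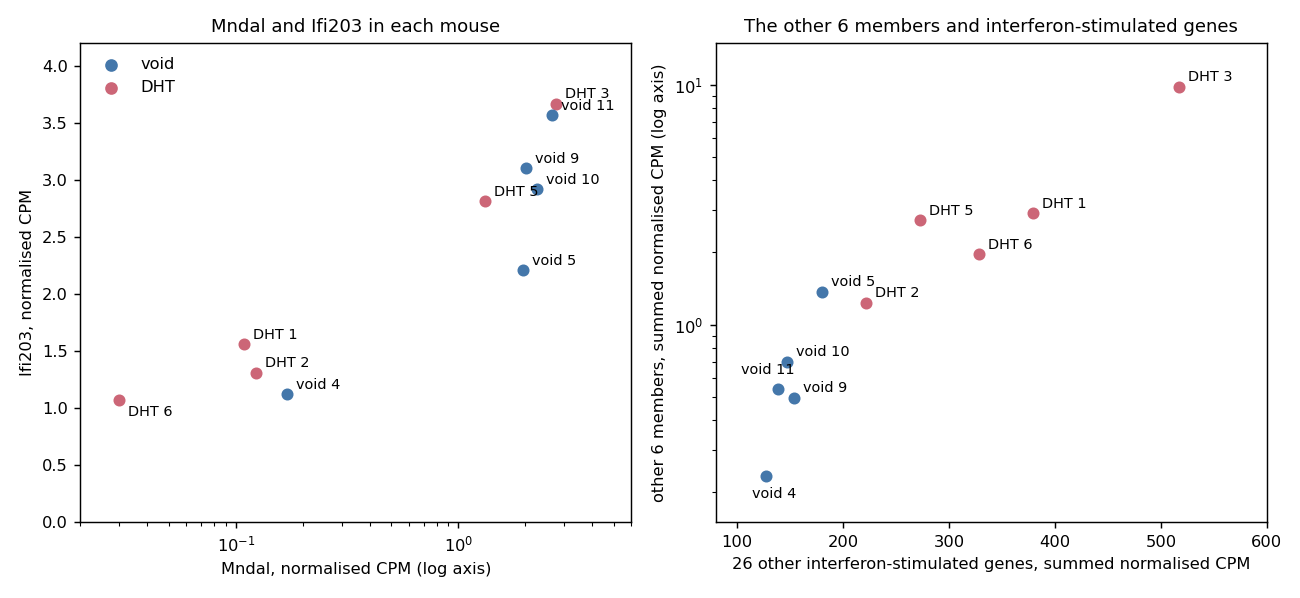
Left, Mndal (horizontal, log axis) and Ifi203 (vertical) in normalised CPM for each of the 10 mice. Right, the summed CPM of 26 other interferon-stimulated genes (horizontal) and of the other 6 members (vertical, log axis). On the left, 4 mice of both implants sit at 0.0298 to 0.169 CPM of Mndal and the other 6 at 1.32 to 2.74, and on the right the DHT mice lie at 222 to 517 CPM, beyond the void mice at 128 to 180.

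The makeup of the family's expression differed between the groups accordingly. With void, Ifi203 and Mndal gave 51.9% and 34.9% of the counts of the 8 members, and with DHT 30.01% and 13.4%. Ifi204 went from 3.70% to 19.6%, Ifi207 from 6.54% to 19.5% and Ifi209 from 1.23% to 11.6%. These shares pool the counts of 5 mice, and DHT 3 weighs heavily in them. The summed level of the 8 members was 5.05 ± 2.03 CPM with void and 6.68 ± 5.59 CPM with DHT (SD, n = 5 each), a log2 ratio of 0.40 that turned to -0.26 without DHT 3. The sum over the other 6 members, without Ifi203 and Mndal, was 0.233 to 1.37 CPM in void mice and 1.23 to 9.82 CPM in DHT mice, and the groups overlapped through void 5 and DHT 2.

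Per length of transcript, Mndal was highest with void, at 0.497 ± 0.263 CPM per kilobase, followed by Ifi203 at 0.385 ± 0.142 (SD, n = 5 each). Ifi207 at 0.0966 ± 0.0856, Ifi204 at 0.0530 ± 0.0287, Ifi211 at 0.0277 ± 0.0210 and Ifi209 at 0.0172 ± 0.0117 CPM per kilobase came next. Ifi203 was above Ifi207 and Ifi209 above Ifi213 in 5 of 5 void mice, by more than the SD of the difference. For Ifi209 and Ifi213 this rests on 1 to 4 and 0 to 2 counts per void mouse. In void 9 both had 1 count, so their order there comes from the lengths alone. The other neighbours in this order, Mndal and Ifi203 among them, did not differ beyond their spread. With DHT, Ifi207 came first at 0.390 ± 0.243 CPM per kilobase, then Ifi204 at 0.354 ± 0.403, Ifi203 at 0.311 ± 0.166, Mndal at 0.238 ± 0.325 and Ifi209 at 0.212 ± 0.230. Down to Ifi209, neighbours in this order did not differ by more than the SD of their difference. Ifi204 was above Ifi203 in 2 of 5 DHT mice. Further apart in the order, Ifi207 was above Ifi209 in every DHT mouse. Ifi211 was above Ifi213 in 5 of 5 DHT mice, by 0.108 ± 0.0738 CPM per kilobase (SD of the difference). Ifi213 and Ifi205 were lowest in both groups. Lengths are unions of GENCODE M21 exons, which may differ from the gene models used in counting.

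**Figure D4:**
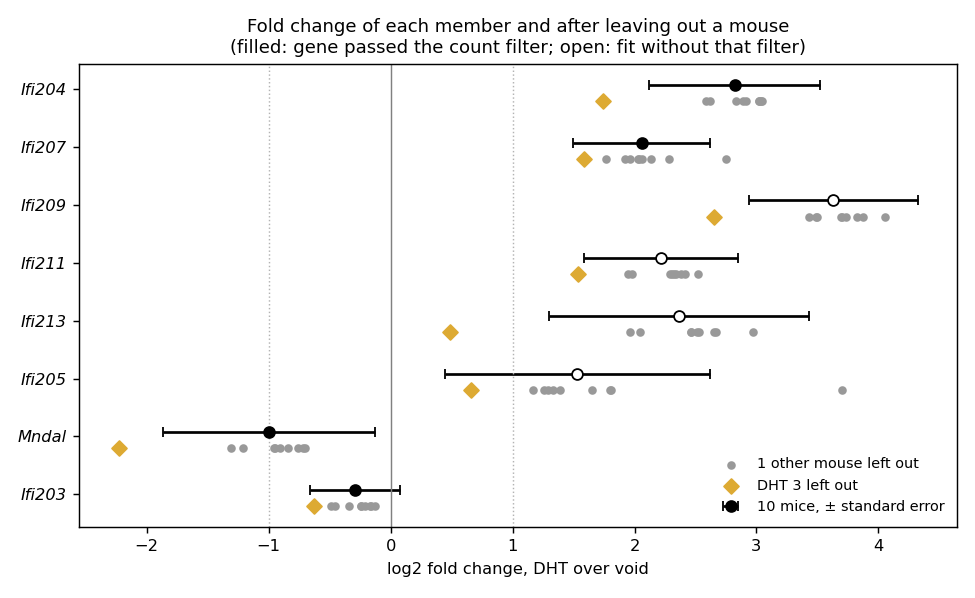
Log2 fold change of each member, DHT over void (horizontal axis), with its standard error (filled, genes that passed the count filter; open, genes fitted without it). Grey points leave out 1 mouse each and yellow diamonds leave out DHT 3, which moves all 8 values to the left, to 1.74 for Ifi204 and 2.65 for Ifi209.

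DHT 3 had the highest level of all 8 members and of all 14 family genes in the table. It was the highest mouse for 11.1% of genes tested. Among 26 other interferon-stimulated genes, from a list chosen with earlier results of these data known, it was highest for 25. Among the 382 genes called higher with DHT it was highest for 102. Family genes of 1 mouse are not independent of each other. Apart from DHT 3, all of the other 4 DHT mice were above every void mouse for Ifi204 and Ifi209, and 3 of 4 for Ifi207 and Ifi211. Ifi204 and Ifi209 already separated the groups with DHT 3 included, so leaving out the highest mouse could not change that order. Without DHT 3 the log2 fold change was smaller, 1.74 for Ifi204 and 2.65 for Ifi209 in the unfiltered fit. The share of all genes with such an order among these 4 mice was not computed.

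The other 6 family genes were compared as well. Aim2, the inflammasome sensor, had the highest mean level per length of all 14, 0.714 CPM per kilobase with void and 1.13 with DHT. Not scaled by length, it was at 2.50 ± 0.684 CPM with void and 3.95 ± 1.06 CPM with DHT (SD, n = 5 each). Its log2 fold change of 0.67 (standard error 0.21) did not pass after adjustment (adjusted p = 0.105, and p = 0.0317 in the two-sided exact permutation test). RefSeq promoters of Aim2 and Ifi202b did not hold the ISRE letters. Those of Ifi206, Ifi208 and Ifi214 held GAAATCGAAA. In the fit without the count filter, Ifi206 and Ifi208 had log2 fold changes of 3.10 (adjusted p = 0.0956) and 3.08 (adjusted p = 0.0787). Their counts were 0 to 3 in void mice, 34 and 33 in DHT 3 and 1 to 5 in the other DHT mice. Ifi214 (1.46, adjusted p = 0.558) and Ifi203-ps (0.55, adjusted p = 0.643) did not pass, and Ifi202b had 1 count with void and 5 with DHT (ratio 4.46, 95% exact interval 0.50 to 211). None of these 6 was called.

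Genes beside the cluster were compared as well. The nearest tested gene before the family on the chromosome, the adhesion gene Cadm3, had a log2 fold change of -0.08 (adjusted p = 0.682). The nearest tested gene after it, Fmn2, had -0.14 (adjusted p = 0.242). Further out on the side of Cadm3, Slamf8 (1.90, adjusted p = 0.00670) and Slamf9 (1.64, adjusted p = 0.00900), both named after their values were seen, were called higher. Both had every DHT mouse above every void mouse, as 5.39% of genes tested did.

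Genes that act with the p200 proteins were taken from lists, chosen with earlier results of these data known. Of all 17622 genes tested, 2.17% were called higher, the share to set beside each list. The 14 tested genes of cytosolic DNA sensing had a median log2 fold change of 0.17, against 0.00937 for all genes tested. Of the 14, 2 were called higher and 0 lower. They were Tlr9, the endosomal DNA receptor (1.07, adjusted p = 0.0139), and Zbp1, a sensor of Z-form nucleic acids (2.41, adjusted p = 0.0161). The adaptor STING, listed as Tmem173 (0.52, adjusted p = 0.0361), and the lysosomal nuclease Dnase2a (0.76, adjusted p = 0.0328) passed the adjusted p but not the fold limit. Cgas, the sensor upstream of STING, did not pass (0.17, adjusted p = 0.602), and the nuclease gene Trex1 is listed at 0 in all 10 mice. Of 10 inflammasome genes, Il1b was called higher (1.63, adjusted p = 0.0117). The adaptor Pycard passed the adjusted p alone (0.89, adjusted p = 0.00948), while Casp1 (0.07) and Il18 (0.04) had values near 0. The list's median log2 fold change was 0.62.

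Of 18 tested genes of the interferon pathway, 4 were called higher and 0 lower, with a median of 0.24, where 2.17% of genes tested were higher. Called were the transcription factors Irf7 (2.18), Irf8 (1.18) and Irf9 (1.06) and the interferon feedback gene Usp18 (2.42), with adjusted p from 0.00670 to 0.00761. The receptors Ifnar1 (0.03) and Ifngr1 (0.24, adjusted p = 0.168) did not pass. Of 26 other interferon-stimulated genes, 17 were called higher and 0 lower, where 2.17% of genes tested were higher. Their log2 fold changes were positive in 26 of 26, with a median of 1.38, where 9227 of 17622 genes tested were positive. The 5 with the lowest p among those called were Lgals3bp (1.91), Ifit3 (1.84), Bst2 (1.94), Cxcl10 (3.11) and Rtp4 (1.67). Summed over the 26 genes, void mice were at 128 to 180 CPM and DHT mice at 222 to 517, with DHT 3 highest. Over these 4 lists and the other family genes, 24 genes were called higher, and 15 to 31 when each mouse was left out (15 without void 11).

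Likeness over the 10 mice was measured as the root mean square distance between standardised log2 CPM profiles, where a smaller value is more alike and the libraries are shared by all genes. Mndal and Ifi203 were each other's nearest of all tested genes, at 0.305, with medians over all genes of 1.36. The 5 tested genes outside the family nearest to the mean profile of the 4 tested members were Cdk15 (0.437), H2-T22 (0.449), Ang (0.474), Xlr3b (0.485) and Tlcd1 (0.497), with a median of 1.16. That mean profile joins unlike members. Taken singly, a view chosen after the values were seen, Ifi204 was nearest to Zbp1 (0.266), Igtp (0.286) and Gbp3 (0.310), and Ifi207 to Cxcl9 (0.122), H2-T23 (0.196) and Trim25 (0.256). Most of these, Zbp1, Igtp, Gbp3 and Cxcl9 among them, are interferon-induced genes.

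Markers of cell types moved with the treatment too. Of all genes tested, 5.22% passed the adjusted p as higher and 9227 of 17622 log2 fold changes were positive. Of 12 microglia markers, 0 were called, 5 passed the adjusted p alone, and 12 of 12 log2 fold changes were positive, with a median of 0.54. Their summed level was 464 to 543 CPM with void and 651 to 924 with DHT, where DHT 1 was highest and DHT 3 lay below DHT 1 and DHT 5. Per 1000 CPM of microglia markers, Ifi204 was at 0.173 to 0.580 in void mice and 0.682 to 5.63 in DHT mice. Ifi209 was at 0.0613 to 0.258 and 0.265 to 3.22, so that the groups of both genes did not overlap on this scale either. For Ifi209 the gap is narrow and lies between void 5 with 4 counts and DHT 2 with 7. The share of all genes that separate on this scale was not computed, so the separation cannot be read as particular to these 2 genes. Before this scaling, 5.39% of genes tested and 2.99% of genes with at least 1 count separated in this direction. Ifi211 and Ifi207 did overlap on it, with 3 and 1 of 5 DHT mice above all void mice. Choroid plexus markers, which mark epithelium that lies beside the hippocampus, were at 118 to 1937 CPM with void and 2231 to 3187 with DHT. Of these, 4 of 12 were called higher (Kl, Otx2, Clic6 and Tmem72), against 2.17% of genes tested. DHT 3 had the lowest choroid plexus sum of the DHT mice, at 2231 CPM. The part of either cell type in the p200 values was not tested.

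Markers of other immune cells were lower, and none of their defining markers was at 0 in all mice. Monocyte and neutrophil markers summed to 0.639 to 2.05 CPM with void and 1.21 to 2.44 with DHT, and T and NK cell markers to 0.517 to 1.44 and 1.14 to 1.91. Border macrophage markers were at 2.45 to 15.5 CPM with void, highest in void 5, and 5.57 to 12.7 with DHT, with a median log2 fold change of 0.07. B cell markers were at 15.01 to 23.4 and 18.7 to 39.5 CPM. Of these 4 lists few genes passed the count filter (6 of 7 border macrophage, 2 of 8 monocyte and neutrophil, 1 of 9 T and NK cell and 2 of 6 B cell markers), and of those tested 0 were called. Among the untested ones Nkg7, a gene named after its values were seen, had 5 counts with void and 22 with DHT (1.87 in the unfiltered fit, adjusted p = 0.145). Its DHT mice were all above its void mice, a separation that 2.99% of genes with at least 1 count showed. Astrocyte and meningeal fibroblast markers had 1 gene called each, Gfap (1.18) and Igf2 (1.68). The median log2 fold changes of these 2 lists were 0.09, with 6 of 8 positive, and 0.06, with 4 of 8 positive. Endothelial, oligodendrocyte and neuron markers had 0 called, with medians of -0.02, 0.22 and -0.08. The part of any of these cell types in the p200 values was not tested.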

How the data were processed

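Hippocampal mRNA of 10 female P301S mice was sequenced, and the authors deposited raw counts per gene. They trimmed reads with HTStream, aligned them with STAR 2.7.10b and counted them. The genome is mm10 by the methods and mm39 by the submitters' processing notes, and the annotation release, strand setting and handling of multiply matching reads are not given in the sources used here. Of the gene identifiers, 51948 of 56884 had a symbol in GENCODE M21, most at a later version, so lengths, positions and shared stretches come from that reference. Groups came from the labels. Counts were compared in R 4.3.3 with edgeR 4.0.16 (TMM, filterByExpr, quasi-likelihood test, Benjamini-Hochberg over all genes tested). Each standard error was taken as the size of the log2 fold change over the root of its F statistic. CPM on the log2 scale used a prior count of 2. The test was checked on simulated data. Alternatives were DESeq2 1.42.0, limma 3.58.1 (voom), other size factors, filters and call rules, and leaving out each mouse. The same without the count filter was added after the data were seen.

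The members and lists were chosen with earlier results of these data known. Named genes were all family genes, up to 5 called genes per list with the lowest p, the 5 nearest profiles, the neighbours and markers the text turns on. Of the other PYHIN genes listed, Pydc3, Pydc4, Pyhin1 and Mnda had no row of their own symbol. The result for 1 listed gene is not reported here. Sequence steps used Python with pandas 2.3.3.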

Additional observations from a re-analysis of the deposited data

Results flagged for a closer look

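In 28 sets of 5 mice (14 family genes in each group), the gap between the highest or lowest mouse and its nearest neighbour was compared with the range of the set, and a ratio above 0.71 marks a mouse that stands apart. Chance flags about 1 in 20 sets of normally distributed values, or 1.4 here. Several of these sets hold few counts, so that rate may not apply to them, and family genes of 1 mouse are not independent. DHT 3 stood above the other DHT mice in Ifi204 (0.880), Ifi209 (0.786), Ifi211 (0.802), Ifi213 (0.814), Ifi206 (0.894) and Ifi208 (0.820). Void 4 stood below the other void mice in Mndal (0.722), with 8 counts against 61 to 88.

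Void 5 stood above the other void mice in Aim2 (0.721), at 3.67 CPM. In Ifi205 void 5 (1) and in Ifi202b void 10 (1) were the only void mice with a count, which gives a ratio of 1 by construction.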

How the results depend on the processing

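Ifi204 was the member called higher, 1 of 8. The number was 3 under DESeq2, where 2.22% of genes were called higher, and 3 without the count filter (Ifi204, Ifi207 and Ifi209 in both). It was 2 with the unadjusted p, and 0 under limma voom and with at least 10 counts required in every library, a filter that left Ifi203 alone of the 8. With each mouse left out it ranged from 0 to 2, and without the count filter from 2 to 4. No member was called lower under any of these. Of the list genes, 24 were called higher, and 15 to 31 with each mouse left out. The log2 ratio of the summed level ranged from -0.26 without DHT 3 to 0.60. Among log2 fold changes of single members no sign turned. No paired analysis was possible because the labels name no pairs or litters. The number 5 occurs in both groups and names different mice. Depth limits Ifi205, Ifi211 and Ifi213, whose void counts were at or below 3 in every mouse. It also limits the size of the Ifi209 fold change, as its void counts were 1 to 4. Reads shared between members could not be assigned here.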
